A study of Mus musculus with 9 samples.

Results

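The 50 type I interferon-stimulated genes described here are genes that cells switch on after interferon alpha or beta, together with both chains of the receptor for these interferons. They were chosen by gene symbol from a list, and all 50 were found among the 56748 genes of the table. Guanylate-binding proteins, immunity-related GTPases and antigen presentation genes were left out of the list. RNA was measured in MLO-Y4 cells, an osteocyte-like line of the mouse, in 9 libraries that form 3 groups of 3. In each group the cells shared a well with primary chondrocytes of 5- to 6-day-old C57BL/6J mice, which sat above them on an insert with pores of 1.0 µm. In the control group the chondrocytes were unstimulated. In the 24 h and 48 h groups the chondrocytes had received interleukin-1β at 10 ng/mL for 6 h, and the co-culture then lasted 24 h or 48 h. How long the control co-culture lasted is not in the labels, so stimulation and time in culture cannot be told apart in a difference from control. The labels give the cell line of the 48 h libraries as MLO-Y5, MLO-Y6 and MLO-Y7, although the protocols name MLO-Y4 for every sample. Per the protocols the cells are 1 line, and nothing in the labels says that replicates came from separate cultures, so p-values measure only the spread between these libraries.

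Type I interferons bind a receptor of the chains IFNAR1 and IFNAR2, which carry the kinases TYK2 and JAK1. These kinases phosphorylate STAT proteins, among them STAT2, which enters the complex ISGF3 with IRF9. In the nucleus ISGF3 binds the interferon-stimulated response element (ISRE), a short sequence in the promoters of antiviral genes. The proteins made in this way sense foreign RNA or DNA, cut viral RNA, block translation or trap viral particles. Several of them, such as STAT2, IRF9 and IRF7, belong to the pathway itself and so strengthen a later response. In bone, type I interferon is known to restrain the formation of osteoclasts, the cells that resorb bone.

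Promoter sequence was at hand for 39 of the 50 members, as RefSeq windows on the mouse build GRCm38.p6 that run from 250 bases before to 50 bases after a start site. The stretches printed here carry the ISRE core, written GAAANNGAAA or, on the other strand, TTTCNNTTTC, where N is any base. They come from the 4 members with a core upstream of the start that rose most at 48 h, Rsad2, Ifit1, Stat2 and Ifit3. The close copy Ifit3b is added, as is Isg15, after which the group is often named. Bst2 and Oas1a are printed as members that hold the core and did not rise against control. Eif2ak2, Oas3 and Cxcl10 also hold a core and were not called higher against control, and their letters are not printed. Each stretch is 60 bases long, is written 5′ to 3′ on the strand of its gene, and has the core in capitals.
Rsad2: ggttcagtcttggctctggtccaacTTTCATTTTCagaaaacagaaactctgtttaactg
Ifit1: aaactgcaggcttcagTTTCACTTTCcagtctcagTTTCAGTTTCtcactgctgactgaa
Stat2: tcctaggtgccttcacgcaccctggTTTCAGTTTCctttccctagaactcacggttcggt
Ifit3: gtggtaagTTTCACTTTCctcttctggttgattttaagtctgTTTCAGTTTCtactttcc
Ifit3b: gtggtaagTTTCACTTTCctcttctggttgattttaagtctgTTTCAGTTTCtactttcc
Isg15: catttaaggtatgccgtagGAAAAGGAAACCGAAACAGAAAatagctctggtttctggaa
Bst2: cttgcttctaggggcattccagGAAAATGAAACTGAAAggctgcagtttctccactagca
Oas1a: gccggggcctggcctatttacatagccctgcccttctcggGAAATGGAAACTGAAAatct

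All 8 stretches lie before the start site on GRCm38.p6. Rsad2 is read from the minus strand of chr12:26456538-26456597, Ifit1 from the plus strand of chr19:34640769-34640828, and Stat2 from the plus strand of chr10:128270251-128270310. Ifit3 is at chr19:34583365-34583424 and Ifit3b at chr19:34607761-34607820, both on the plus strand, and their printed letters are identical. Isg15 is at chr4:156200856-156200915, Bst2 at chr8:71537565-71537624 and Oas1a at chr5:120907526-120907585, all on the minus strand. The Ifit1 stretch holds 2 separate cores, while the 3 cores of Isg15 and the 2 of Bst2 and of Oas1a run into each other. Of the 39 members with a window, 16 held the core (41.0%), against 3.99% of the 27025 genes with a window. A longer form, GAAANNGAAACT or AGTTTCNNTTTC, includes the core and was present in 8 members (20.5%) and in 0.303% of all genes. The gamma-activated site TTCNNNGAA, an element bound by STAT proteins, was present in 10 members (25.6%) and in 9.55% of all genes. These are matches of letters on either strand and not measured binding sites.

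Total counts were 12250628 to 15956441 in the control libraries, 14440454 to 15558585 at 24 h and 16458398 to 18515456 at 48 h. All 50 members passed the filter on low counts, and 48 had at least 10 counts in every library. Levels are given as CPM, counts scaled to the size of the library, and 40 members averaged at least 10 CPM in every group. A log2 change is a fitted log2 fold change between 2 groups, given with its standard error (SE). A gene is called higher or lower where edgeR's quasi-likelihood test, adjusted by the Benjamini-Hochberg method over 13812 genes, gave a p under 0.05. Of the osteocyte markers, Pdpn, Gja1, Cd44 and Phex were expressed, Dmp1 and Sost reached at most 6 counts and 1 count in a library, and Mepe and Fgf23 were at 0. The summed level of the 13 chondrocyte markers was 1682 to 1717 CPM in control, 1567 to 1650 at 24 h and 2130 to 2218 at 48 h. Prg4 and Sox9 made up nearly all of it. The other 11 chondrocyte markers summed to 6.40 to 7.75, 5.01 to 5.94 and 7.03 to 7.58 CPM, and Acan, Col9a1, Col9a2, Matn1 and Cnmd were at 0 in every library. Of the 5 chondrocyte markers tested, Col11a1 (log2 change 1.02), Comp (1.45), Prg4 (0.38) and Sox9 (0.14) were called higher at 48 h against control and Matn3 (-1.25) lower. The 11 leukocyte markers summed to 18.8 to 20.7 CPM in control, 24.2 to 26.3 at 24 h and 21.0 to 24.2 at 48 h, with Adgre1, Itgam, Cd3e and Siglech at 0. The osteocyte markers summed to 1946 to 2138, 2249 to 2282 and 2869 to 2914 CPM, and at 48 h Gja1 (0.69), Phex (0.43) and Pdpn (0.15) were called higher and Cd44 (-0.57) lower. The part of these markers in the changes of the members was not tested, and in these bulk samples fewer cells of a type and less RNA per cell cannot be told apart.

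Summed over the members, interferon-stimulated transcripts stayed near the control level at 24 h and were above it at 48 h. Their summed level was 2704, 2767 and 2774 CPM in the control libraries, 2691, 2772 and 2670 CPM at 24 h, and 3613, 3422 and 3555 CPM at 48 h. Each 48 h library was above every control and 24 h library, while the control and 24 h libraries overlapped. Against control, 34 of the 50 members rose at 48 h and 3 fell, where 46.4% of all genes tested were called, 22% higher and 24.4% lower. The median log2 change of the members was 0.36, against -0.002 over all genes, and the range ran from -0.37 for Bst2 to 2.07 for Rsad2. Of the 34 genes that rose, 9 had a log2 change of at least 1, 5 lay between 0.5 and 1, and 20 were under 0.5. In 31 members all 48 h libraries lay above all control libraries and in 4 below, where 25.7% and 27.4% of all genes did.

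At 24 h only Ifnar2 rose and 4 members fell, namely Ifit3, Ifit3b, Trim21 and Sp110, where 6.15% of all genes were called, 3.25% higher and 2.9% lower. The fitted log2 change was below 0 for 33 members, against 51.1% of all genes, and its median was -0.06, against -0.004 over all genes. At an unadjusted p under 0.05, 15 members were lower and 6 higher, where 9.34% and 9.32% of all genes were. In 12 members all 24 h libraries lay below all control libraries and in 5 above, against 11.2% and 10.3% of all genes. Between 48 h and 24 h, 33 members rose and 2 fell, Adar and Ifi27, where 49.1% of all genes were called, 23.7% higher and 25.4% lower. The median log2 change of that comparison was 0.43 for the members and -0.002 for all genes. In 37 members all 48 h libraries lay above all 24 h libraries and in 3 below, against 29.1% and 30.3% of all genes. The 24 h libraries enter both of the last comparisons, and the control libraries both of the comparisons with control. A joint test of the 3 groups called 38 members (76%), where it called 51.9% of all genes. The plot of all members by library shows this course gene by gene.

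**Figure D1:**
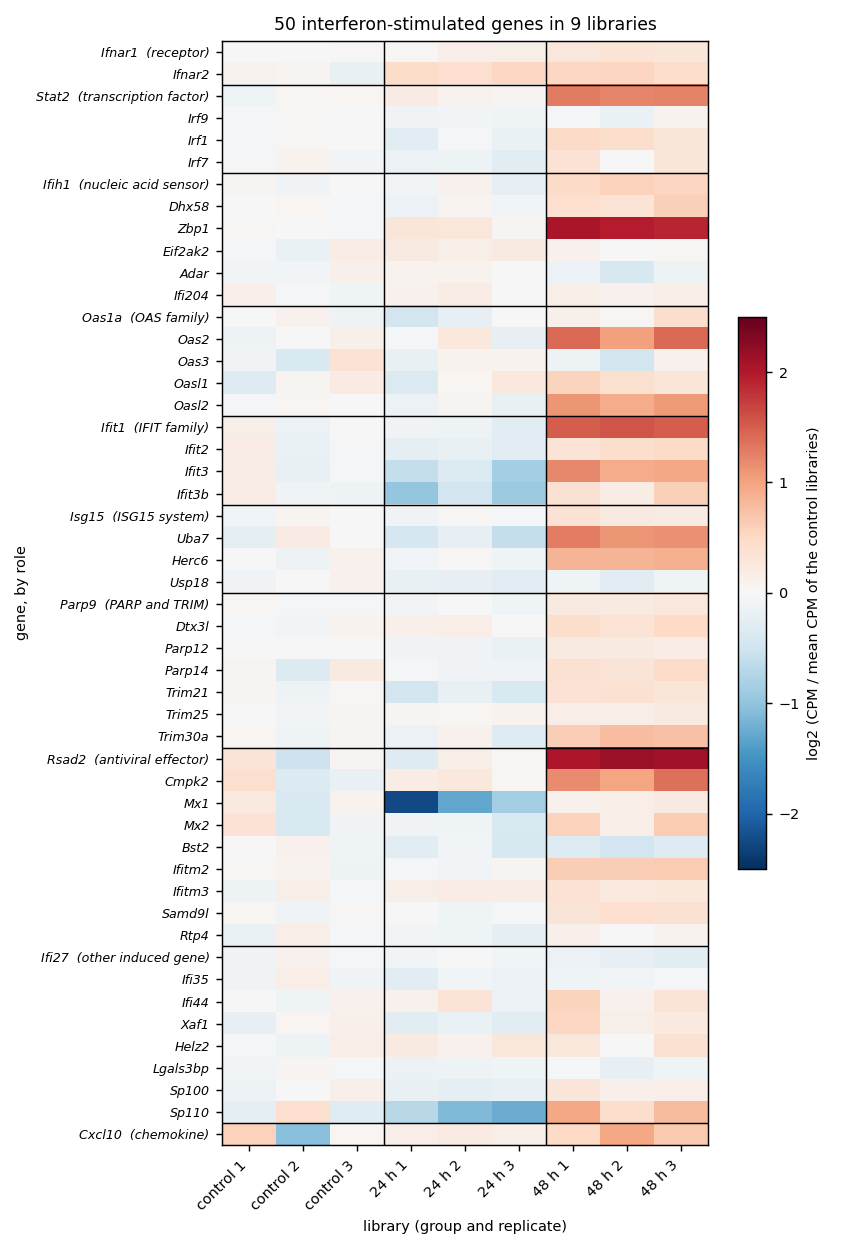
Level of each of the 50 members (rows, ordered by role) in each of the 9 libraries (columns), as the log2 ratio of its CPM to the mean CPM of the 3 control libraries; red is higher and blue lower than that mean. The 48 h columns are red for most rows, strongest for Rsad2 and Zbp1, while the 24 h columns are mostly pale, with Mx1, Ifit3, Ifit3b and Sp110 blue.

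Of the 5 calls at 24 h, the 4 lower ones each depended on single libraries. Without the third 24 h library no member was called lower, with log2 changes of -0.46 for Ifit3, -0.71 for Ifit3b, -0.87 for Sp110 and -0.32 for Trim21, without the first control library 1 was, and without the first 24 h library 2 were. The call for Ifnar2 held in every such omission. The plot of fitted changes shows both comparisons with control for each gene.

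**Figure D2:**
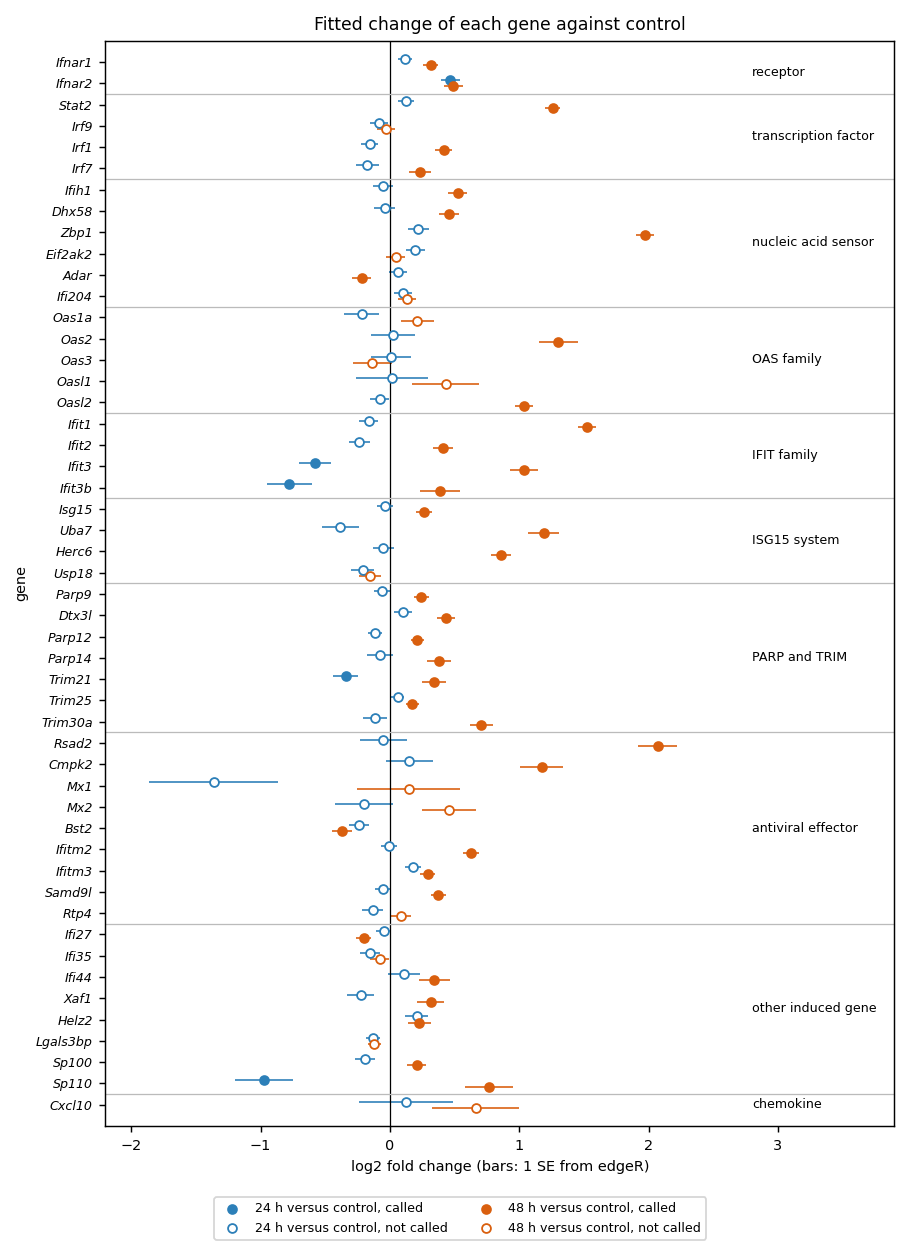
Log2 change against control at 24 h (blue) and at 48 h (orange) for each member, with bars of 1 standard error from the edgeR fit and filled symbols for genes called at an adjusted p under 0.05. At 48 h 37 symbols are filled, 34 of them right of 0, and at 24 h 5 are filled, 4 of them left of 0.

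The receptor chains were the only role in which both members rose at 48 h and a member rose at 24 h. Over all genes tested, 22% were called higher at 48 h and 3.25% at 24 h. Ifnar2, the chain that binds interferon with high affinity, was at 47.7, 46.9 and 39.6 CPM in the control libraries, 61.7, 59.8 and 64.2 CPM at 24 h, and 63.7, 64.7 and 60.4 CPM at 48 h. All 6 libraries of the stimulated groups were above all control libraries, and the stimulated groups overlapped each other. Its log2 change against control was 0.47 (SE 0.07, adjusted p = 0.000277) at 24 h and 0.49 (SE 0.07, adjusted p = 1.47e-05) at 48 h, while that between 48 h and 24 h was 0.02 (SE 0.07, adjusted p = 0.796). Ifnar1, the chain that completes the receptor, was at 80.2, 80.7 and 82.7 CPM in control, 83.0, 91.2 and 90.2 CPM at 24 h, and 99.3, 103 and 100.4 CPM at 48 h. Its libraries did not overlap between any groups. It was called at 48 h against control (log2 change 0.31, SE 0.05, adjusted p = 0.000123) and not at 24 h (0.12, SE 0.06, adjusted p = 0.258). The call of Ifnar1 between 48 h and 24 h (log2 change 0.20, adjusted p = 0.00603) was lost without the first 24 h library, at 0.15 and an adjusted p of 0.0516. Ifnar2 shares sequence of its transcripts with the overlapping readthrough gene Gm21970, which had 0 counts.

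Of the transcription factors, Stat2, Irf1 and Irf7 rose at 48 h and Irf9 was not called, where 22% of all genes were called higher. Stat2, the subunit of ISGF3 that activates transcription, was at 81.9, 90.8 and 90.9 CPM in control, 101, 93.6 and 92.2 CPM at 24 h, and 217, 206 and 207 CPM at 48 h. The 48 h libraries were above all others, and those of 24 h lay just above those of control. Stat2 was 2.39-fold higher at 48 h than in control (log2 change 1.26, SE 0.06, adjusted p = 7.81e-12) and was not called at 24 h (0.12, SE 0.06, adjusted p = 0.269). Irf9, the subunit of ISGF3 that recognises DNA, was at 44.0, 45.8 and 45.4 CPM in control, 42.3, 43.2 and 41.9 CPM at 24 h, and 44.3, 40.2 and 47.8 CPM at 48 h. Its 48 h libraries spanned those of both other groups, and the log2 change against control was -0.08 (SE 0.07, adjusted p = 0.573) at 24 h and -0.03 (SE 0.07, adjusted p = 0.757) at 48 h. Both genes encode parts of ISGF3, and Stat2 alone of the pair was called.

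Irf1, a factor that is itself induced by interferons and by NF-kB and binds ISRE-like elements, was at 99.4, 105 and 104 CPM in control, 85.4, 99.5 and 91.0 CPM at 24 h, and 144, 139.8 and 127 CPM at 48 h. All its 48 h libraries were above all others, and the control and 24 h libraries touched. Irf1 was 1.33-fold higher at 48 h than in control (log2 change 0.41, SE 0.06, adjusted p = 3.27e-05) and 1.49-fold higher than at 24 h (0.57, SE 0.06, adjusted p = 6.80e-07). Irf7, which amplifies interferon gene transcription after an initial response, was at 35.5, 38.7 and 34.9 CPM in control, 33.0, 33.3 and 30.2 CPM at 24 h, and 46.6, 36.6 and 45.1 CPM at 48 h. One 48 h library lay within the control range, and all 24 h libraries lay below control. Irf7 was called against control at 48 h (log2 change 0.24, SE 0.09, adjusted p = 0.0296), a call lost without control library 1 (adjusted p = 0.0781), control library 3 (0.0557), 48 h library 1 (0.157) or 48 h library 3 (0.117). Between 48 h and 24 h its log2 change was 0.41 (SE 0.09, adjusted p = 0.000575), which no omission of a library removed.

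**Figure D3:**
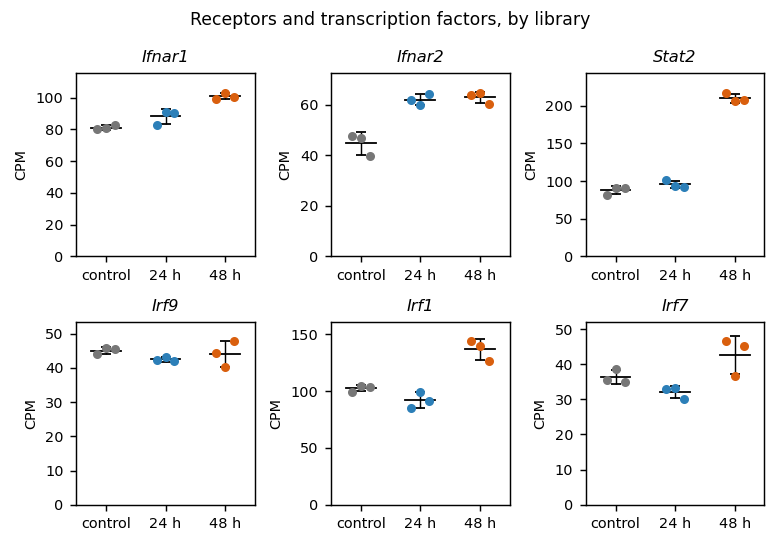
CPM of the receptor chains Ifnar1 and Ifnar2 and of the transcription factors Stat2, Irf9, Irf1 and Irf7 in each library, with 1 point per library and lines for the mean and SD of each group (n = 3). The Ifnar2 points of 24 h and 48 h lie above those of control, the Stat2 points of 48 h lie between 206 and 217 CPM with all others at or below 101 CPM, and the Irf9 points of the 3 groups are level.

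Of the 6 nucleic acid sensors, Zbp1, Ifih1 and Dhx58 were higher at 48 h, Adar was lower, and Eif2ak2 and Ifi204 were not called. In that comparison with control, 22% of all genes tested were called higher and 24.4% lower. Zbp1, which senses nucleic acids in the Z form and can trigger necroptosis, was at 23.4, 22.9 and 22.3 CPM in control, 28.0, 27.9 and 23.9 CPM at 24 h, and 94.0, 89.3 and 86.1 CPM at 48 h. The 48 h libraries were far above all others, and the 24 h libraries were all slightly above control. Zbp1 was 3.92-fold higher at 48 h than in control (log2 change 1.97, SE 0.07, adjusted p = 5.13e-13), while at 24 h its log2 change was 0.22 (SE 0.08, adjusted p = 0.119). Ifih1, which encodes the sensor MDA5 of long double-stranded RNA, was at 45.5, 40.9 and 43.8 CPM in control, 41.3, 46.4 and 37.5 CPM at 24 h, and 60.3, 64.3 and 62.9 CPM at 48 h. Its 48 h libraries were above all others and its log2 change against control was 0.52 (SE 0.07, adjusted p = 1.12e-05). Dhx58, which encodes LGP2, a partner of MDA5, was 1.37-fold higher at 48 h. Adar edits adenosine to inosine in double-stranded RNA and so keeps cellular RNA from being sensed. It was at 85.4, 84.9 and 97.5 CPM in control, 95.3, 94.3 and 90.0 CPM at 24 h, and 80.3, 67.9 and 81.6 CPM at 48 h. All its 48 h libraries lay below all others, and it fell by 0.22 against control (log2, SE 0.07, adjusted p = 0.0184) and by 0.28 against 24 h (SE 0.07, adjusted p = 0.00321). The call of Adar against control was lost without control library 3 (log2 change -0.14, adjusted p = 0.119) or 48 h library 2 (-0.14, adjusted p = 0.129).

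Eif2ak2, the kinase PKR that stops translation when it binds double-stranded RNA, averaged 83.1 CPM in control, 95.2 CPM at 24 h and 85.7 CPM at 48 h. Ifi204, a DNA sensor of the PYHIN family, averaged 42.2, 45.3 and 46.4 CPM in the same groups. Neither was called in any comparison. Both, like Dhx58, lie outside the rule by which genes were named and were named after their values were seen, as were Oas1a, Isg15, Usp18, Mx1 and all members given by a call, a mean or a log2 change alone.

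The 2'-5'-oligoadenylate synthetases make a messenger that activates RNase L, which cuts viral and cellular RNA. Oas2 and Oasl2 rose at 48 h, and Oas1a, Oas3 and Oasl1 were not called against control, where 22% of all genes were called higher. Oas2 was at 4.77, 5.15 and 5.72 CPM in control, 5.07, 6.25 and 4.52 CPM at 24 h, and 13.9, 10.7 and 13.8 CPM at 48 h. Its control and 24 h libraries were interleaved, and at 48 h it was 2.47-fold higher than in control (log2 change 1.30, SE 0.15, adjusted p = 1.13e-06). Oasl2, a family member with ubiquitin-like domains, was at 48.8, 51.1 and 49.1 CPM in control, 44.9, 52.3 and 43.5 CPM at 24 h, and 106, 94.6 and 104 CPM at 48 h. The 48 h libraries stood apart from the other 6, at 2.05-fold the control level (log2 change 1.03, SE 0.07, adjusted p = 1.28e-09). Oas1a, whose promoter letters are shown above, was at 12.6, 13.4 and 11.4 CPM in control, 9.01, 10.7 and 12.3 CPM at 24 h, and 13.7, 12.6 and 16.8 CPM at 48 h. Its libraries overlapped between control and each other group, and it was called only between 48 h and 24 h (log2 change 0.43, SE 0.13, adjusted p = 0.0104), a call lost without 24 h library 1 (0.32, adjusted p = 0.0714) or 48 h library 3 (0.30, adjusted p = 0.0821). Oas2, Oas3 and Oas1a lie in 1 cluster on chromosome 5 (120868398 to 121045584, GRCm39), with the further genes Oas1c, Oas1b and Oas1g between Oas3 and Oas1a. Oas3 had a log2 change of -0.14 (SE 0.15) at 48 h, where Oas2 was at 1.30 and Oas1a at 0.21.

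All 4 members of the IFIT family, whose proteins bind viral RNA or the translation machinery, rose at 48 h, and Ifit3 and Ifit3b fell at 24 h. Over all genes tested, 22% were called higher at 48 h and 2.9% lower at 24 h. Ifit1, which binds RNA that lacks the methyl marks of a cellular cap, was at 86.1, 70.1 and 77.3 CPM in control, 73.6, 71.5 and 63.6 CPM at 24 h, and 221, 231 and 221 CPM at 48 h. Its control and 24 h libraries overlapped, and it was 2.88-fold higher at 48 h than in control (log2 change 1.52, SE 0.07, adjusted p = 6.82e-12). At 24 h its log2 change was not called at -0.16 (SE 0.07, adjusted p = 0.226), and was called without control library 2 (-0.23, adjusted p = 0.0469). Ifit3 was at 27.1, 21.1 and 23.5 CPM in control, 15.9, 18.9 and 13.3 CPM at 24 h, and 55.1, 45.7 and 46.9 CPM at 48 h. Its 3 groups did not overlap, with 24 h lowest and 48 h highest. Ifit3 fell by 0.58 at 24 h (log2, SE 0.12, adjusted p = 0.00569) and rose by 1.03 at 48 h (SE 0.11, adjusted p = 3.39e-07), both against control. Between 24 h and 48 h Ifit3 rose 3.06-fold (log2 change 1.61, SE 0.11, adjusted p = 1.65e-09). The fall of Ifit3 at 24 h was no longer called without 24 h library 3 (log2 change -0.46, adjusted p = 0.0502) or control library 1 (-0.47, adjusted p = 0.0598).

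Ifit3b is a close copy of Ifit3 in the mouse. It was at 8.41, 6.95 and 6.70 CPM in control, 3.74, 5.27 and 3.88 CPM at 24 h, and 9.54, 8.33 and 11.1 CPM at 48 h. All its 24 h libraries were below all others, while 1 library at 48 h was just under the highest control library. Its log2 change against control was -0.78 (SE 0.17, adjusted p = 0.00874) at 24 h and 0.39 (SE 0.15, adjusted p = 0.0458) at 48 h. The 24 h call was lost without 24 h library 1 (-0.68, adjusted p = 0.0588), 24 h library 3 (-0.71, adjusted p = 0.0540) or control library 1 (-0.66, adjusted p = 0.0698). The 48 h call was lost without any 1 of control libraries 2 and 3 and 48 h libraries 1 and 3, with adjusted p from 0.0811 to 0.209. Reads of the copies cannot always be told apart, since 19.05% of the 100-base windows of the Ifit3 transcript also occurred in Ifit3b, and 27.23% of those of Ifit3b in Ifit3. Counts of both were therefore summed, a step chosen after the data were seen. The sum was 35.5, 28.0 and 30.2 CPM in control, 19.6, 24.2 and 17.1 CPM at 24 h, and 64.6, 54.1 and 58.0 CPM at 48 h. The groups did not overlap, with log2 changes against control of -0.62 (SE 0.11, adjusted p = 0.00171) at 24 h and 0.91 (SE 0.10, adjusted p = 9.32e-07) at 48 h. Ifit2, the fourth member of the family, averaged 41.8, 35.6 and 55.8 CPM in the 3 groups and was called at 48 h against control and against 24 h. The family lies in 1 cluster on chromosome 19, from 34528094 to 34627409 on GRCm39.

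The ISG15 system attaches the ubiquitin-like protein ISG15 to other proteins. The activating enzyme Uba7, the ligase Herc6 and Isg15 itself rose at 48 h, where 22% of all genes were called higher. Usp18, the protease that removes ISG15 and also blocks IFNAR2 signalling, was not called in any comparison. Uba7 was at 7.53, 10.3 and 8.80 CPM in control, 6.61, 7.75 and 5.86 CPM at 24 h, and 21.7, 19.1 and 19.5 CPM at 48 h. Its 48 h libraries were well above the other groups, which overlapped each other. Uba7 was 2.28-fold higher at 48 h than in control (log2 change 1.19, SE 0.12, adjusted p = 2.88e-07) and had a log2 change of -0.38 (SE 0.14, adjusted p = 0.130) at 24 h. Herc6 was at 22.6, 20.4 and 24.1 CPM in control, 21.2, 22.8 and 20.7 CPM at 24 h, and 40.3, 40.2 and 41.4 CPM at 48 h. The 48 h libraries agreed closely with each other and stood at 1.82-fold the control level (log2 change 0.86, SE 0.08, adjusted p = 3.80e-08). Isg15 was at 69.4, 76.4 and 73.3 CPM in control, 68.3, 74.7 and 70.3 CPM at 24 h, and 93.5, 84.7 and 84.7 CPM at 48 h. The groups of control and 24 h overlapped and the 48 h libraries were higher, by 1.20-fold (log2 change 0.26, SE 0.06, adjusted p = 0.00171). Usp18 was at 21.5, 22.6 and 24.8 CPM in control, 20.3, 20.1 and 19.0 CPM at 24 h, and 21.4, 19.1 and 21.2 CPM at 48 h. All control libraries of Usp18 were above the others, and the log2 change at 48 h was -0.16 (SE 0.08, adjusted p = 0.143).

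All 7 members of the PARP and TRIM role, enzymes of ADP-ribosylation and ubiquitin ligases, rose at 48 h. In each the 48 h libraries lay above all control libraries. Over all genes tested, 22% were called higher, and in 25.7% the 48 h libraries lay above all control libraries. Trim30a, a mouse TRIM protein known to dampen NF-kB signalling, was at 34.6, 30.9 and 34.9 CPM in control, 30.0, 36.0 and 26.6 CPM at 24 h, and 51.5, 56.8 and 55.9 CPM at 48 h. It had the largest change of the role at 48 h (log2 change 0.71, SE 0.09, adjusted p = 3.07e-06). Dtx3l, a ubiquitin ligase that works with PARP9, was at 39.1, 38.1 and 42.0 CPM in control, 43.1, 44.7 and 39.9 CPM at 24 h, and 53.8, 50.6 and 56.3 CPM at 48 h. The 48 h group was highest, with a log2 change of 0.43 (SE 0.07, adjusted p = 4.33e-05) against control. Parp9 rose less, by 0.24 (SE 0.06, adjusted p = 0.00240), and the genes overlap by 682 bases on opposite strands, so that counts there depend on strand handling. Trim21, a cytosolic antibody receptor and ubiquitin ligase, was at 19.1, 16.6 and 18.6 CPM in control, 13.2, 15.8 and 13.8 CPM at 24 h, and 23.1, 23.5 and 22.3 CPM at 48 h. The 3 groups did not overlap, in the same order as for Ifit3. Trim21 fell by 0.34 at 24 h (log2, SE 0.10, adjusted p = 0.0394) and rose by 0.34 at 48 h (SE 0.09, adjusted p = 0.00462). The fall at 24 h was lost without any 1 library other than control library 2 or 24 h library 2, with adjusted p from 0.0539 to 0.202. Parp12, Parp14 and Trim25 had log2 changes of 0.21, 0.38 and 0.17 at 48 h.

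Among the 9 antiviral effectors, 5 rose at 48 h and Bst2 fell, where 22% of all genes were called higher and 24.4% lower. Rsad2 encodes viperin, an enzyme that makes a chain-terminating nucleotide, and its neighbour Cmpk2 encodes a mitochondrial nucleotide kinase that supplies it. Rsad2 was at 6.22, 3.43 and 5.19 CPM in control, 3.94, 5.47 and 5.15 CPM at 24 h, and 20.2, 22.0 and 21.2 CPM at 48 h. Its control and 24 h libraries were mixed, and at 48 h it was 4.20-fold higher than in control, the largest change among the members (log2 change 2.07, SE 0.15, adjusted p = 3.64e-09). Cmpk2 was at 7.35, 4.33 and 4.82 CPM in control, 6.27, 6.58 and 5.71 CPM at 24 h, and 12.5, 10.8 and 14.4 CPM at 48 h. Its 48 h libraries were above all others, with a 2.25-fold change (log2 change 1.17, SE 0.17, adjusted p = 1.32e-05). The genes lie next to each other on chromosome 12, from 26492745 to 26529836 on GRCm39. Bst2 encodes tetherin, which holds budding virus at the cell surface, and went the other way although its promoter window holds 2 cores. It was at 107, 117 and 101 CPM in control, 90.4, 103 and 82.3 CPM at 24 h, and 87.1, 77.6 and 86.7 CPM at 48 h. All 48 h libraries of Bst2 were below all control libraries, and the 24 h libraries overlapped both. Bst2 fell by 0.37 at 48 h (log2, SE 0.08, adjusted p = 0.000598). Its log2 change at 24 h was not called at -0.24 (SE 0.08, adjusted p = 0.0784), and was called without control library 3 (-0.28, adjusted p = 0.0220) or 24 h library 2 (-0.33, adjusted p = 0.0187).

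**Figure D4:**
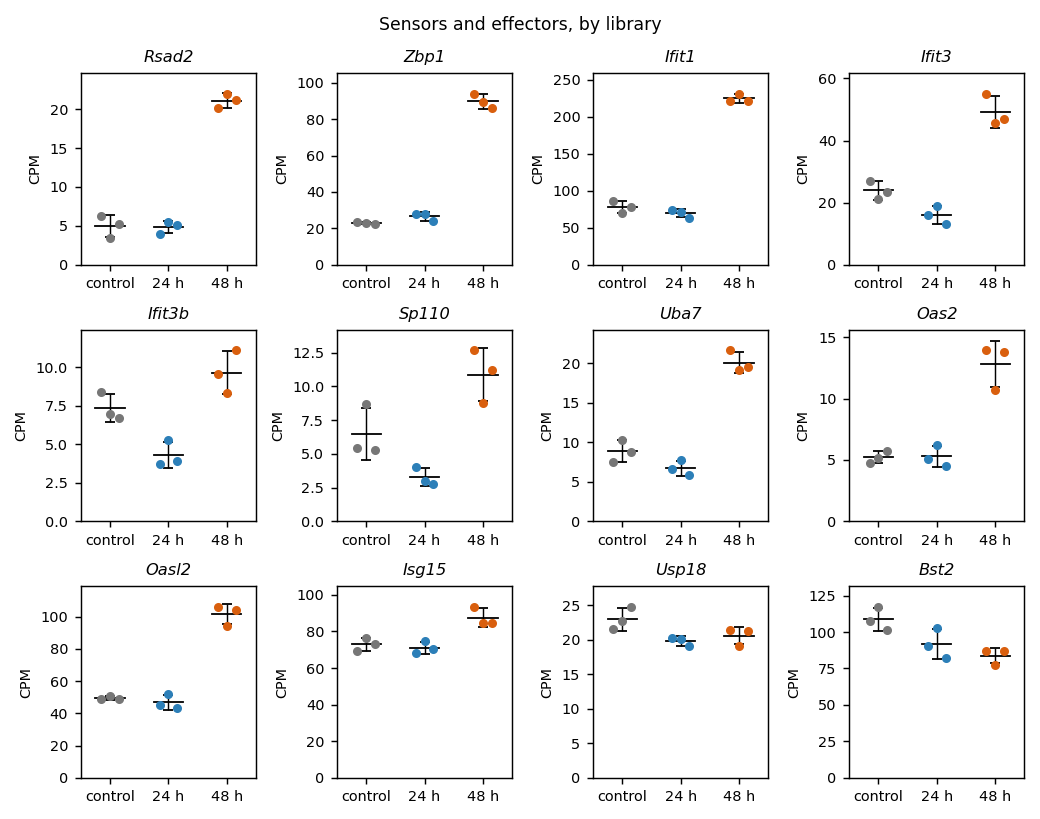
CPM of 12 sensors and effectors in each library, with 1 point per library and lines for the mean and SD of each group (n = 3). The 48 h points of Rsad2, Zbp1, Ifit1, Oas2, Oasl2 and Uba7 lie clear above the rest, those of Ifit3, Ifit3b and Sp110 follow a lower 24 h group, and those of Usp18 and Bst2 do not rise.

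Of the other effectors, Ifitm2, Ifitm3 and Samd9l rose at 48 h and Mx1, Mx2 and Rtp4 were not called against control. Ifitm2 and Ifitm3, membrane proteins that block the entry of viruses, lie close together on chromosome 7, with Ifitm1 between them. Ifitm2 averaged 78.4 ± 5.76 CPM (SD, n = 3) in control and 121 ± 0.796 CPM at 48 h, and Ifitm3 averaged 210.3 ± 20.8 and 257 ± 10.7 CPM. The log2 change was 0.63 for Ifitm2 (SE 0.06, adjusted p = 1.20e-07) and 0.29 for Ifitm3 (SE 0.06, adjusted p = 0.000621). Mx1, a GTPase that traps viral nucleocapsids, was the member with the lowest counts, at 12, 6 and 9 in control, 2, 4 and 5 at 24 h, and 12, 12 and 14 at 48 h. All its 24 h libraries were below the rest, but with so few counts the log2 change of -1.36 at 24 h had an SE of 0.50 and an adjusted p of 0.129. Mx2 averaged 3.42, 3.00 and 4.74 CPM in the 3 groups. Rtp4 overlaps the more strongly counted gene Masp1 on the opposite strand, and its change of 0.08 at 48 h (SE 0.08, adjusted p = 0.419) is uncertain for that reason too.

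The 8 other induced genes include nuclear body proteins and proteins whose action is less clear. Sp110, a nuclear body protein, was at 5.46, 8.67 and 5.27 CPM in control, 4.01, 2.99 and 2.75 CPM at 24 h, and 12.7, 8.75 and 11.2 CPM at 48 h. The groups did not overlap, although the second control library came close to the lowest 48 h library. Sp110 fell by 0.97 at 24 h (log2, SE 0.22, adjusted p = 0.0104), rose by 0.77 at 48 h (SE 0.19, adjusted p = 0.00243) and was 3.34-fold higher at 48 h than at 24 h (log2 change 1.74, SE 0.20, adjusted p = 1.17e-06). The 24 h call of Sp110 was lost without control library 2 (-0.72, adjusted p = 0.0543), 24 h library 2 (-0.91, adjusted p = 0.0511) or 24 h library 3 (-0.87, adjusted p = 0.0679). Ifi27, a small mitochondrial or nuclear envelope protein, was at 161, 184 and 166 CPM in control, 162, 169 and 163 CPM at 24 h, and 154, 148 and 141 CPM at 48 h. The 48 h group was lowest, and it fell by 0.20 against control (log2, SE 0.06, adjusted p = 0.00731), a call lost without 48 h library 3 (-0.17, adjusted p = 0.0553). Against 24 h it fell by 0.15 (SE 0.06, adjusted p = 0.0325), a call lost without any 24 h library or without 48 h library 2 or 3, with adjusted p from 0.0607 to 0.164. Ifi44, a cytoplasmic protein with a GTPase-like domain, was at 22.7, 21.3 and 24.6 CPM in control, 24.5, 28.9 and 20.5 CPM at 24 h, and 33.6, 24.5 and 28.9 CPM at 48 h. Its groups overlapped, and its call at 48 h (log2 change 0.34, SE 0.12, adjusted p = 0.0239) was lost without control library 1 (adjusted p = 0.0629), control library 2 (0.0574) or 48 h library 1 (0.154). Between 48 h and 24 h the log2 change of Ifi44 was not called at 0.23 (adjusted p = 0.108), and was called without 24 h library 2 (0.37, adjusted p = 0.0211) or 48 h library 2 (0.34, adjusted p = 0.0297). Xaf1, Helz2 and Sp100 rose at 48 h with log2 changes from 0.21 to 0.32, each lost under at least 1 alternative. Ifi35 and Lgals3bp were not called, at -0.08 (SE 0.07) and -0.12 (SE 0.05).

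Cxcl10, the chemokine of the list, attracts T cells and natural killer cells and is a common marker of an interferon response. Its counts were 24, 6 and 14 in control, 17, 18 and 16 at 24 h, and 25, 33 and 30 at 48 h. The 48 h libraries overlapped control, owing to control library 1 at 1.51 CPM, and the log2 change of 0.66 (SE 0.33, adjusted p = 0.116) was not called. Without that control library Cxcl10 was called higher, at 1.10 with an adjusted p of 0.0323, so the lack of a call depended on 1 library.

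Read per length, the members differed widely in level in the control group. Ifitm3 had the highest level in control, at 310.2 ± 30.7 CPM per kilobase of gene model (SD, n = 3). Bst2 (120.4 ± 8.97), Ifitm2 (119.7 ± 8.79), Ifi27 (116 ± 8.28), Lgals3bp (110.1 ± 5.43) and Isg15 (104 ± 4.99) followed, and from Bst2 to Lgals3bp neighbours in this order differed by less than the larger of their SDs. Ifit1 came next at 29.3 ± 3.02, and Mx2 (0.946), Oasl1 (0.628), Cxcl10 (0.452) and Mx1 (0.190) were lowest. At 48 h Ifit1 was at 84.5 ± 2.08 CPM per kilobase, below Ifi27 at 101 ± 4.42 and Bst2 at 92.8 ± 5.95. Of the 6 genes highest in control, 3 rose at 48 h (Ifitm3, Ifitm2 and Isg15), 2 fell (Bst2 and Ifi27) and Lgals3bp was not called. Over all genes tested, 22% were called higher and 24.4% lower at 48 h. The genes with the largest fold changes, Rsad2, Zbp1, Ifit1, Oas2, Stat2, Uba7 and Cmpk2, had control levels from 1.14 to 29.3 CPM per kilobase.

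Members were also grouped by the ISRE core in the promoter window, where 22% of all genes were called higher at 48 h against control and 24.4% lower. Of the 16 members with a core, 11 rose and Bst2 fell, with a median log2 change of 0.46. Of the 23 with a window but no core, 18 rose and Adar fell, with a median of 0.34. Of the 11 without a window, 5 rose and Ifi27 fell, with a median of 0.24. At 24 h, 3 of the members with a core fell, which were Ifit3, Ifit3b and Trim21, and the member without it that fell was Sp110. The share called lower among all genes tested was 2.9% at that time. Each of these member calls was lost when certain single libraries were left out. Reads of Ifit3 and Ifit3b cannot always be told apart, so their calls are not independent. Ifit3 and Ifit3b have the same 60 printed bases and had log2 changes of 1.03 (SE 0.11) and 0.39 (SE 0.15) at 48 h. Bst2 and Oas1a share the run GAAACTGAAA, with log2 changes of -0.37 (SE 0.08) and 0.21 (SE 0.13). These differences between genes were not tested.

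The genes for the interferons themselves were at or near 0. Of 21 ligand genes of types I, II and III, 16 had no count in any library and the other 5 reached at most 3 counts in a library, with 11 counts in all. These were Ifnb1, Ifne and Ifnz with 3 counts each over the 9 libraries, and Ifna5 and Ifng with 1 each. None could be tested, and interferon RNA from the chondrocytes on the insert was not measured. A count of 0 allows up to 3 counts in a library, which was 0.160 to 0.245 CPM here, for counting error only.

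Among the 10 signalling genes tested, Jak2, Irf2, Ifngr1 and Il10rb rose at 48 h against control, and Irf3 and Ifngr2 fell. Over all genes tested, 22% were called higher and 24.4% lower in that comparison. The kinase genes Jak1 and Tyk2 had log2 changes of -0.02 (SE 0.04) and 0.05 (SE 0.07) at 48 h and were not called. Irf5 was not called either, and Irf4, Irf8 and Ifnlr1 had too few counts to be tested.

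Of 7 feedback genes tested, Socs3 and Ptpn1 rose at both times. Over all genes tested, 3.25% were called higher at 24 h, and 22% were called higher and 24.4% lower at 48 h. Socs3, an inhibitor of JAK kinases that is known above all for cytokines of the interleukin-6 family, was at 62.3, 68.8 and 57.3 CPM in control, 100.3, 86.9 and 93.2 CPM at 24 h, and 120.0, 120.3 and 121 CPM at 48 h. Its groups did not overlap, with log2 changes against control of 0.57 at 24 h (SE 0.07, adjusted p = 2.10e-05) and 0.94 at 48 h (SE 0.07, adjusted p = 2.65e-09). Socs1, the inhibitor better known for interferon receptors, was at 20.4, 19.0 and 10.1 CPM in control, 15.4, 14.2 and 12.8 CPM at 24 h, and 11.9, 12.4 and 13.5 CPM at 48 h. Control library 3 lay below all others, and at 48 h the log2 change was not called (-0.39, SE 0.17, adjusted p = 0.0719). Without that library Socs1 was called lower at 48 h (-0.63, adjusted p = 5.65e-05). Ptpn1, a phosphatase that acts on JAK2 and TYK2, had log2 changes of 0.30 at 24 h (SE 0.05, adjusted p = 0.00163) and 0.52 at 48 h (SE 0.05, adjusted p = 2.90e-07). Pias1 rose at 48 h against control and Ptpn11 fell, while Ptpn2 and Cish were not called there.

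The list of 60 further interferon-induced genes had 59 in the table and 44 tested. At 48 h 25 of them rose against control and 1 fell, with a median log2 change of 0.28, and at 24 h only Ccl5 was called, higher. Of all genes tested, 22% were called higher and 24.4% lower at 48 h, with a median of -0.002, and 3.25% and 2.9% at 24 h. The 3 with the largest changes at 48 h were Ifitm1, Ccl5 and Ifi203. Ifitm1 was near the floor, with 1, 3 and 1 counts in control and 14, 12 and 21 at 48 h. Ccl5, a chemokine for T cells, was at 7.60, 6.70 and 7.30 CPM in control, 10.3, 10.2 and 12.5 CPM at 24 h, and 17.9, 19.9 and 22.4 CPM at 48 h, with no overlap between groups. Its log2 changes were 0.60 (SE 0.13, adjusted p = 0.00637) at 24 h and 1.47 (SE 0.12, adjusted p = 1.23e-08) at 48 h. Ifi203, of the same PYHIN family as Ifi204, was at 7.09, 5.15 and 6.32 CPM in control, 5.34, 6.38 and 4.87 CPM at 24 h, and 15.4, 16.2 and 16.8 CPM at 48 h. Its 48 h libraries were above all others (log2 change 1.37, SE 0.13, adjusted p = 9.36e-08).

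By position, 22 of the 50 members lay in 9 clusters with gaps of at most 200000 bases, and the members were spread over 16 chromosomes. In the clusters of Ifit genes, of Rsad2 and Cmpk2, of Parp14, Dtx3l and Parp9, of Ifitm2 and Ifitm3, of Sp110 and Sp100, and of Ifnar2 and Ifnar1, every member rose at 48 h against control. In the Oas cluster and in the pair Oasl2 and Oasl1 only Oas2 and Oasl2 were called, and in the pair of Mx genes neither was. Over all genes tested, 22% were called higher in that comparison. The receptor genes Ifnar2 and Ifnar1 lie within 91169671 to 91304329 of chromosome 16, next to Il10rb and Ifngr2. Of these neighbours Il10rb rose at 48 h (log2 change 0.24, SE 0.08, adjusted p = 0.0189) and Ifngr2 fell (-0.20, SE 0.06, adjusted p = 0.00874). The call of Il10rb was lost without control library 2 (adjusted p = 0.0691) or 48 h library 2 (0.104), and that of Ifngr2 without 48 h library 3 (0.0681). All coordinates of genes are those of the deposited table on GRCm39.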

How the data were processed

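RNA of 9 libraries was sequenced by the study from both ends with a read length of 150 bases after directional library preparation. Per the labels and the methods, the authors trimmed reads, aligned them with HISAT2 to GRCm39 and counted them per gene with featureCounts. The authors deposited raw counts per gene, which are whole numbers without normalization. Versions of featureCounts differ between sources, RSEM is named as well, and the use of strand and multiple matches in counting is not given in the sources used here, so overlapping genes and near-identical copies are uncertain.

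Counts were analysed with edgeR 4.0.16 in R 4.3.3 (filterByExpr with a minimum count of 10, TMM scaling, 1 quasi-likelihood fit of all 9 libraries with group as the only term, 6 residual degrees of freedom). Benjamini-Hochberg adjustment covered 13812 genes, which held 99.88% of the reads, and genes were called at an adjusted p under 0.05. Each SE is the fitted log2 change divided by the root of its F value. CPM are counts scaled to the TMM-corrected library size. Every pair of replicates differed beyond counting noise (chi-square per degree of freedom 2.32 to 8.45), and TMM factors were 0.983 to 1.015. The procedure was tested on simulated data.

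The members, the lists of other genes, the tests and the rule for naming genes were chosen with earlier results of these data known. The rule named all receptors and transcription factors, in each other role the 2 members (1 for the chemokine) with the largest absolute change at 48 h among those whose mean reached 1 CPM in a compared group, every member called at 24 h and every member called lower at 48 h. A further part of the rule, on proteins at least 80% identical, was not used here, and shared 100-base windows of transcripts took its place. Promoters were taken from RefSeq (GRCm38.p6) by symbol, for 39 of 50 members. Alternatives were relative log expression or library-size scaling, DESeq2 1.42.0, no filter, a minimum count of 50, a threshold of 0.01, only the groups compared, a replicate block, and each library left out. The sum of Ifit3 and Ifit3b was added after the data were seen. Some genes of the pathway outside the members are not reported here.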

Additional observations from a re-analysis of the deposited data

Results flagged for a closer look

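The members' changes differed between the 2 co-culture times, tested as 48 h versus 24 h in the edgeR fit, since both times are set against the same control. In all, 33 members had a higher effect at 48 h than at 24 h and 2 a lower one, where 23.7% and 25.4% of all genes did. Among the named members, the difference between the effects (log2) was largest for Rsad2 at 2.12, followed by Zbp1 at 1.75, Sp110 at 1.74, Ifit1 at 1.69, Ifit3 at 1.61 and Uba7 at 1.57. It was 1.28 for Oas2, 1.17 for Ifit3b, 1.13 for Stat2, 1.11 for Oasl2 and 1.02 for Cmpk2. Smaller differences were 0.91 for Herc6, 0.82 for Trim30a, 0.68 for Trim21, 0.58 for Ifih1, 0.57 for Irf1, 0.41 for Irf7, 0.33 for Dtx3l and 0.20 for Ifnar1. Adar at -0.28 and Ifi27 at -0.15 had a lower effect at 48 h. The labels name the 48 h libraries MLO-Y5, MLO-Y6 and MLO-Y7, 1 name each, so that a difference in cell line, if these names are right, and the time in co-culture cannot be told apart.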

How the results depend on the processing

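Scaling, DESeq2 and the other filters left the main counts within 1.5 times, except for the smallest ones. Members called higher at 24 h were 4 without a filter and 2 with a replicate block, and members called lower at 24 h were 2 at a threshold of 0.01. Members called lower at 48 h versus 24 h were 1 with library size only, with a minimum count of 50 and at a threshold of 0.01. The cause of these shifts was not tested. Leaving out 1 library at a time gave 1 to 3 members higher and 0 to 5 lower at 24 h (median log2 fold change -0.11 to -0.05), 28 to 35 higher and 2 to 4 lower at 48 h (0.33 to 0.40), and 30 to 35 higher and 1 to 3 lower at 48 h versus 24 h (0.42 to 0.48), with 33 to 41 in the joint test. Under every alternative, 1 of 5 calls was kept at 24 h (Ifnar2), 29 of 37 at 48 h and 29 of 35 at 48 h versus 24 h. Calls lost at least once were Ifit3, Ifit3b, Trim21 and Sp110 at 24 h, Irf7, Adar, Ifit3b, Ifi27, Ifi44, Xaf1, Helz2 and Sp100 at 48 h, and Ifnar1, Oas1a, Mx1, Mx2, Rtp4 and Ifi27 at 48 h versus 24 h. Besides the omissions named above, Trim21 at 24 h was lost with DESeq2, without a filter and with only the 2 groups compared, and Ifit3b at 48 h was lost with DESeq2 (adjusted p = 0.0589). Without a filter, Socs1 at 48 h (adjusted p = 0.00285) and Bst2 at 24 h (log2 fold change -0.22, adjusted p = 0.0127) were called lower.

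Same-numbered libraries did not deviate together: their deviations from group means correlated at -0.05 to 0.08 over 9 pairs, against -0.10 to 0.09 over 18 other pairs. The numbers were therefore not taken to pair the samples. With the replicate block 33 members were higher and 3 lower at 48 h, and Ifit3b at 48 h was not called (log2 fold change 0.39, adjusted p = 0.0557). Changes of sign occurred only among uncalled results when 1 library was left out. At 24 h the ranges of log2 fold change were -0.17 to 0.55 for Cxcl10, -0.11 to 0.0084 for Herc6, -0.085 to 0.014 for Ifi27, -0.016 to 0.23 for Ifi44, -0.14 to 0.018 for Ifih1, -0.11 to 0.13 for Oas2 and -0.24 to 0.16 for Rsad2. For Irf9 the range was -0.089 to 0.033 at 48 h versus control, and -0.0049 to 0.12 at 48 h versus 24 h. No scaling moved the median of all genes by more than 0.04 (log2). Counts limit Mx1 and Cxcl10, the members under 10 counts in some library, and leave the 21 ligand genes untested.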
